A study of Mus musculus with 231 samples.

Results

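The miRNAs described here are the miR-297, miR-466, miR-467 and miR-669 families of the mouse, measured in peripheral blood mononuclear cells (PBMC) by small RNA sequencing. A name belonged to the group when it began with one of these 4 numbers followed by a letter, a hyphen or nothing, and when it had at least 10 counts over all libraries of the training cohort. Of the 1863 miRNAs with training counts, 76 had such a name, and 71 of them passed the minimum. The 5 that did not were miR-466m-5p, miR-669j, miR-466a-3p, miR-466c-3p and miR-466f. The mice were C57BL/6 animals with a conditional Cbfb56M allele and Mx1-Cre, in which poly(I:C) switches on the Cbfb-MYH11 (CM) fusion gene that initiates acute myeloid leukemia, and littermate controls (Ctrl) that received the same injections. Mx1-Cre is driven by an interferon-responsive promoter that is active in blood-forming cells but also in other tissues. The training cohort had 7 CM mice with 53 libraries and 7 Ctrl mice with 76 libraries, sampled before induction (month 0) and then monthly for up to 10 months. All 7 CM mice carried the genotype label CHW, and the Ctrl mice carried CW (4 mice), HW (2 mice) or WT (1 mouse), codes that the labels do not explain. The CM arm held 4 female and 3 male mice and the Ctrl arm 2 female and 5 male mice. The validation cohort had 60 libraries of 10 CM mice and 42 libraries of 6 Ctrl mice. Its CM mice all carried the label CHW and its Ctrl mice CW, HW or WT, with female and male mice in both arms.

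MicroRNAs are short RNAs cut from a hairpin precursor, and each hairpin can give one mature strand from its 5′ side (5p) and one from its 3′ side (3p). The seed, bases 2 to 8 of the mature strand, largely decides which messenger RNAs it pairs with and represses. The gene Sfmbt2, which encodes a Polycomb group protein, carries a rodent-specific array of near-repeat miRNA hairpins in one intron. In the mouse, Sfmbt2 is imprinted in extraembryonic tissue, where the paternal copy is used, and the array is best known from embryonic stem cells and placenta.

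RefSeq gave a mature sequence for 8 of the 71 members. They are shown because these are members from single loci outside Sfmbt2 rather than from the repeat array, and because miR-466q and the miR-466i hairpin carry results below. Each is written 5′ to 3′ with its seed in capitals and with its position on the GRCm38.p6 build.
miR-466q: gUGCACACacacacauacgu (chr3:28419988-28420007, plus strand)
miR-466i-3p: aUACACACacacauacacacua (chr13:17747552-17747573, plus strand)
miR-466k: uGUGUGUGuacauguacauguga (chr3:85467396-85467418, plus strand)
miR-466j: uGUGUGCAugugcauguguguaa (chr10:60960802-60960824, plus strand)
miR-467f: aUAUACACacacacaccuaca (chr11:69635419-69635439, minus strand)
miR-467g: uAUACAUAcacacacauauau (chr5:34732872-34732892, minus strand)
miR-467h: aUAAGUGUgugcauguauaugu (chr9:115381898-115381919, plus strand)
miR-669n: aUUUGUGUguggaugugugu (chr3:115979905-115979924, plus strand)
The 8 seeds differed from each other, although all 8 sequences held a run of CACACA or UGUGUG, as did 40 of 1679 mature miRNAs in RefSeq (2.38%). One miRNA outside the group, miR-668-5p, shared a seed with a member (miR-467h), and it had 4 counts in all training libraries together.

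The label Sfmbt2 held for most of the members and not for all. In the mm9 annotation (GENCODE) Sfmbt2 lay on chr2:10292137-10516880 on the plus strand. Of 78 hairpins of the 4 families, 67 lay in 1 intron of this gene, chr2:10383100-10445571, and none of them overlapped an exon. These 67 hairpins spanned 51336 nucleotides, from 10388571 to 10439906. By the hairpin of their name, 56 members came from this intron and carried 93.04% of the members' counts. A further 3 (miR-466f-3p, miR-466f-5p and miR-297a-5p) had hairpins both in the intron and elsewhere and carried 5.13%. The 8 members whose hairpins all lay elsewhere (miR-466i-5p, miR-466i-3p, miR-466j, miR-466k, miR-467f, miR-467g, miR-467h and miR-669n) carried 1.11%. For 4 members (miR-466m-3p, miR-466q, miR-466o-3p and miR-466o-5p) no hairpin of that name was found in this annotation.

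Each training library had 1792809 to 7958411 counts, of which the members took 645 to 11241 (median 5289), or 0.0169% to 0.207%. Between 37 and 67 of the 71 members were above 0 in a library. Levels below are CPM, counts per 1000000 counts of a library after TMM scaling over all training libraries. A count of 0 allows up to 3 counts, which is 0.377 to 1.67 CPM depending on the library, for counting error only. The miR-290 to miR-295 strands that mark the embryonic setting of this array were nearly absent. The 6 of them had 5 to 97 counts each over all training libraries, and none exceeded 1.28 CPM. The leukocyte miRNAs miR-142a-3p and miR-142a-5p were at 6415 CPM or more in every training library. Of the markers for other tissues, liver miR-122-5p was at 0.206 to 17.0 CPM, neuronal miR-124-3p at 0 to 1095 and miR-9-5p at 0 to 21.5 CPM, and muscle miR-1a-3p, miR-133a-3p and miR-206-3p reached 8418, 406 and 30.1 CPM. Of the CM libraries of month 1, those of mice 3336 and 3368 stood apart with the erythroid miR-451a at 376072 and 215183 CPM, against 24082 to 52278 CPM in the other CM mice. The sample numbers of mice 3334 and 3335 cross between months 5 and 6. Summed levels are given with and without mice 3334 and 3335, and those of month 1 without mice 3336 and 3368. Counts of calls without either pair are given, for the comparisons in which it was left out, where they moved by over 1.5 times.

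The members were unequal in level. The miR-467 family had 13 members and 51.2% of the members' counts, miR-466 had 26 members and 27.02%, miR-669 had 28 members and 17.5%, and miR-297 had 4 members and 4.27%. Strands named 5p carried 67.4% of the counts and strands named 3p 27.7%. The most abundant member, miR-467e-5p, alone had 28.4% of the counts and a level of 345.8 ± 105.4 CPM (SD over the 53 CM and 76 Ctrl libraries). It was followed by miR-467c-5p at 129.99 ± 35.0 CPM and miR-466d-3p at 103.7 ± 31.5 CPM. The other members among the first 10 were miR-467d-5p, miR-669c-5p, miR-467a-5p, miR-466f-3p, miR-466g, miR-297b-3p and miR-669o-5p, with means from 34.9 to 65.6 CPM. This order is that of the count table. In the deposited CPM miR-467e-5p was also first, but miR-467a-5p (276 CPM), miR-466e-3p (237 CPM) and miR-669a-3p (174 CPM) came next, and miR-467c-5p and miR-466d-3p were at rank 11 and 15 with 121.5 and 61.3 CPM. The first 3 together held 47.5% of the counts, and 40 of the 71 members had at least 1000 counts.

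The more abundant strand differed between hairpins. Among 27 hairpin names with both strands among the members, the 5p strand had more counts in 18 and the 3p strand in 9 by the count table. For miR-467e the 5p strand made up 98.7% of the counts of both strands (203614 against 2718), and for miR-467c and miR-669c it made up 99.5% and 99.1%. For miR-466d it made up 1.03% (627 against 60442), and for miR-466b, miR-466f and miR-297b 1.15%, 4.50% and 17.8%. For miR-466h and miR-669f it made up 24.2% and 56.5%. These shares come from the count table. In the reads recovered from the deposited CPM, a second counting described next, 5p was the larger in 17 hairpins and 3p in 10, and the larger strand was the other one in 7 of the 27. The 5p share turned from 97.04% to 21.4% for miR-467d, from 97.7% to 15.3% for miR-669o, from 92.7% to 28.1% for miR-466i and from 96.2% to 1.29% for miR-466p. It turned the other way for miR-466h (24.2% to 74.4%), miR-297b (17.8% to 51.2%) and miR-466o (11.7% to 57.8%). The larger strand of miR-467e, miR-467c, miR-669c, miR-466d, miR-466b, miR-466f and miR-669f was the same by both.

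**Figure D1:**
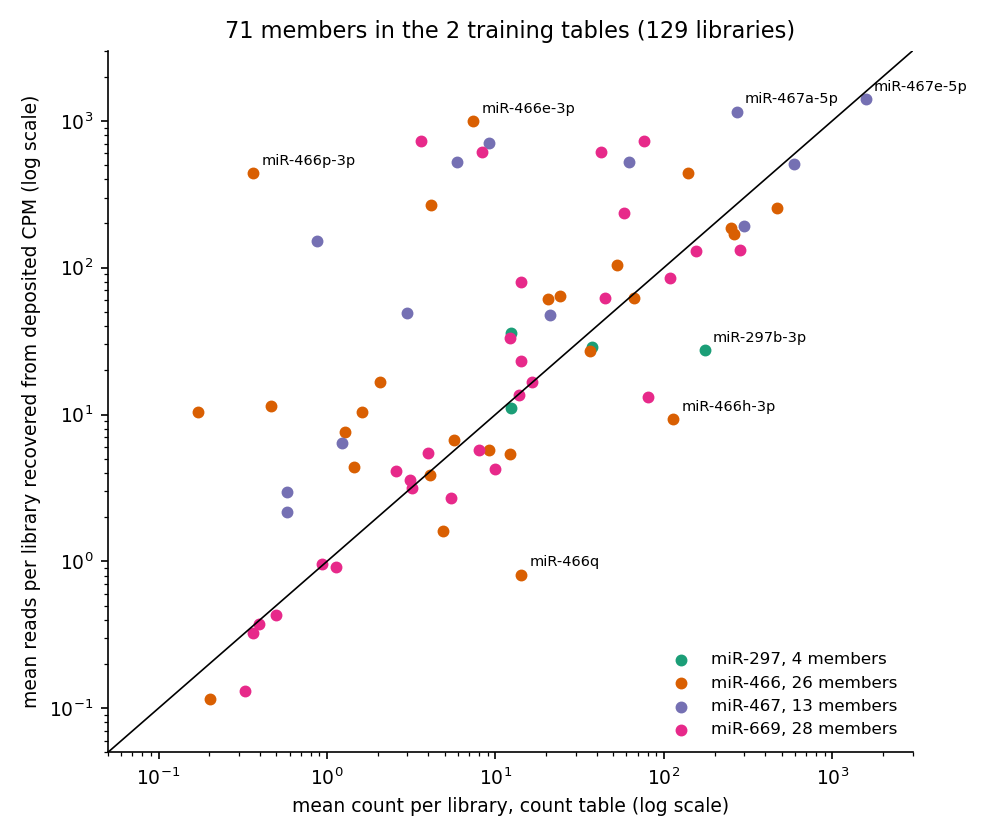
Each point is 1 of the 71 members, coloured by family. The x axis is its mean count per library in the count table and the y axis its mean reads per library recovered from the deposited CPM, both on log scales over all training libraries, and the line marks equal values. miR-467e-5p lies near the line, whereas miR-466p-3p lies far above and miR-466q far below it.

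Because the members are near-repeats, the 2 training tables of the study, a count table and a CPM table from another counting, did not give the same level for each of them. The CPM values were whole multiples of 1 read (100% of low values within 0.01 read), so reads could be set beside counts, as drawn in the plot of counts against reads. Summed over libraries, reads were within 2 times the counts for 31 members, at least 2 times the counts for 30 and at most 1/2 of them for 10. The ratio of reads to counts had a median of 1.19 and ran from 0.0573 for miR-466q to 1204 for miR-466p-3p. In the deposited CPM 7 sets of names (16 names) had identical values in every library, so that 1 set of reads was given to several names. One such set was miR-466b-3p, miR-466c-3p and miR-466p-3p, with 56608 reads each, against 17894, 2 and 47 counts. Another was miR-669a-5p and miR-669p-5p, with 78908 reads each, against 5443 and 1076 counts. For miR-467a-5p, a member with many hairpin copies, the count table also varied more from library to library than the CPM table did. With 8 hairpins, it had 2 to 1095 counts (median 187) and 78 to 2211 reads (median 1121). miR-467e-5p had up to 3070 counts (median 1553) and up to 2829 reads (median 1382), so the tables were close for this member. Values of single members with identical or multi-copy sequences are therefore uncertain.

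To follow the members as a whole, their levels were summed in each library. At month 0 the summed level was 1217 to 1893 CPM (median 1742) in 7 CM mice and 1206 to 1492 CPM (median 1288) in 7 Ctrl mice, and 5 of the 7 CM libraries lay above every Ctrl library. At month 1 it was 599 to 1522 CPM (median 1177) in CM mice and 1185 to 1826 CPM (median 1559) in Ctrl mice. All 7 CM libraries then lay below the Ctrl median and 4 below every Ctrl library. From month 0 to month 1 the sum went down in 7 of 7 CM mice, to between 0.420 and 0.896 times its first value, and in 2 of 7 Ctrl mice, where the ratio ran from 0.879 to 1.46. Without mice 3336 and 3368 the other 5 CM libraries of month 1 were at 1067 to 1522 CPM, 2 of them below every Ctrl library. Without mice 3334 and 3335, 4 of 6 CM libraries lay above every Ctrl library at month 0 and 4 of 6 below every one at month 1, and the sum went down in 6 of 6 CM mice. Other markers moved at month 1 too. The mean log2 difference, CM less Ctrl, was -0.28 for the leukocyte miR-142a strands, -0.54 for the lymphocyte marker miR-150-5p and -0.52 for the summed myeloid markers. It was 1.35 for the erythroid ones, with mice 3336 and 3368 included. For the summed muscle markers it was 1.79, with 4 of 7 CM libraries above every Ctrl library and 3 below the Ctrl median. The difference was 1.73 for the strands miR-126a-3p and miR-126a-5p of the endothelial list, and 7 of 7 CM libraries lay above every Ctrl library. The study reports that CM raises miR-126 in blood stem and progenitor cells, so these strands are not a marker of endothelium alone here. The part of these cell types in the month 1 level was not tested. In PBMC, fewer cells of a type and less RNA per cell cannot be told apart.

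**Figure D2:**
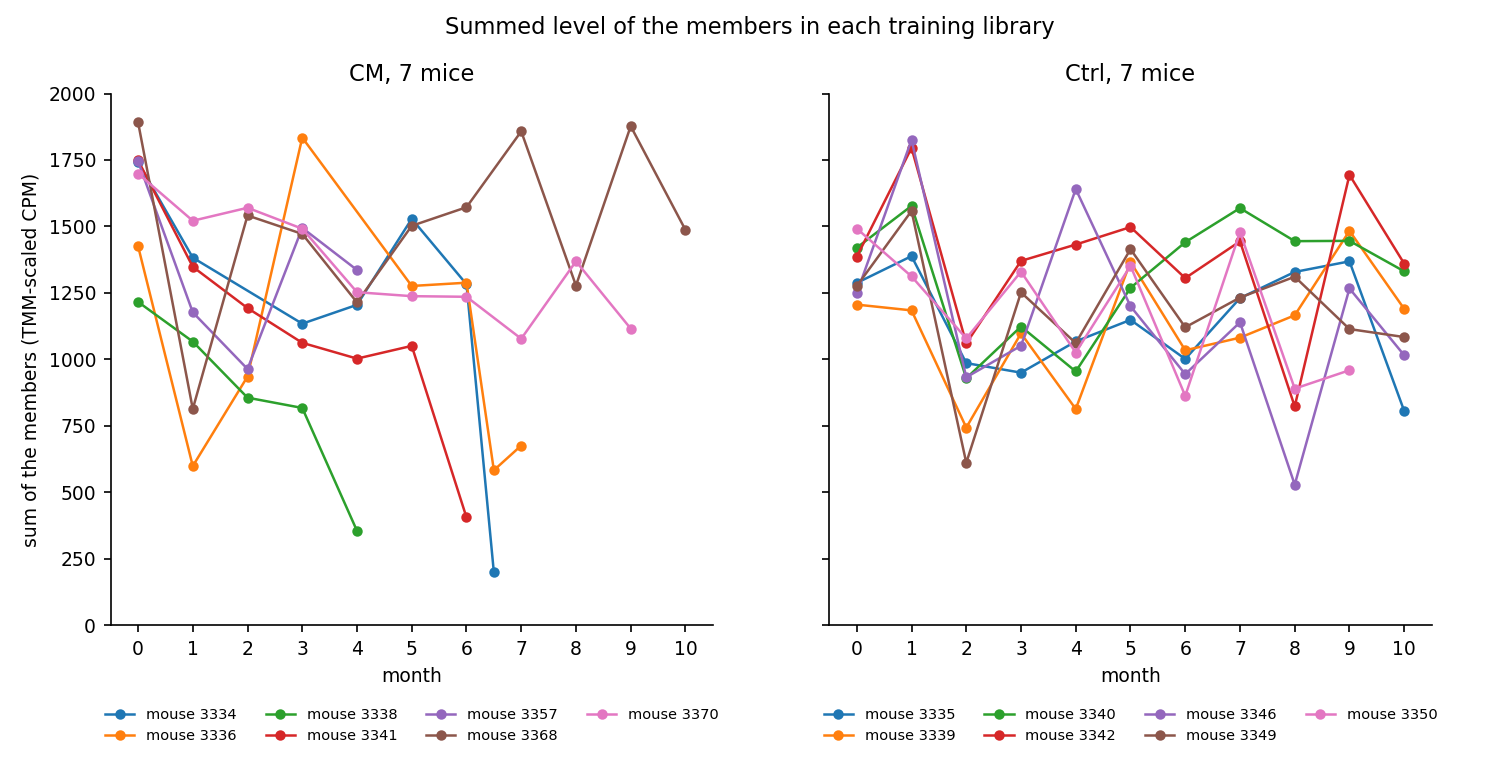
Summed level of the 71 members (y axis, TMM-scaled CPM) against month of sampling (x axis) in 7 CM mice (left) and 7 Ctrl mice (right), with 1 point for each library and 1 line for each mouse. CM mice begin at 1217 to 1893 CPM, and the last libraries of 4 of them end below 700 CPM.

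In the following months the ranges of the arms overlapped. The mean log2 difference in the sum, CM less Ctrl, ran 0.29, -0.47, 0.36, 0.15, -0.19, -0.01 and -0.04 for the 7 months 0 to 6 in turn. It rests on 7, 7, 6, 7, 6, 5 and 5 CM libraries and 7 Ctrl libraries in each month. At month 4 only 2 of 6 CM libraries lay below the Ctrl median, the lowest that of mouse 3338 at 356 CPM. At month 6 it was 1 of 5, that of mouse 3341 at 406 CPM. The 2 lowest Ctrl libraries were those of mouse 3346 at month 8 (529.5 CPM) and mouse 3349 at month 2 (611.5 CPM). The spread of the log2 sum within a mouse was an SD of 0.59 in CM and 0.33 in Ctrl mice, and that of the mouse means 0.31 and 0.12. In the plot of the sum by mouse the lowest CM libraries include the last of mice 3334, 3338 and 3341.

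The last library of each CM mouse was taken at month 4 (mice 3338 and 3357), 6 (mouse 3341), 7 (mouse 3336), 9 (mouse 3370) or 10 (mouse 3368), and that of mouse 3334 carried the label T6p5, read here as month 6.5. Between month 0 and this library the sum went from 1742 to 199.5 CPM in mouse 3334, from 1217 to 356 in mouse 3338, from 1749 to 406 in mouse 3341 and from 1427 to 676 in mouse 3336. In the other 3 mice it went from 1745 to 1336 (mouse 3357), from 1893 to 1487 (mouse 3368) and from 1699 to 1116 CPM (mouse 3370). It was thus lower in 7 of 7 mice, at 0.115 to 0.786 times its first value (median 0.474). In Ctrl mice the sum at month 6 was 0.578 to 1.01 times that at month 0 (median 0.858) and lower in 6 of 7. Without mice 3334 and 3335 the CM sum was lower in 6 of 6 mice, at 0.232 to 0.786 times (median 0.566), and the Ctrl sum in 5 of 6. Of the 7 last CM libraries 4 lay below every Ctrl library of month 6 and 1 lay above every one, and without mice 3334 and 3335 these were 3 and 1 of 6.

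Some markers of blood cells were also lower in these libraries, and not all followed the sum. The 4 last CM libraries with the lowest sums (mice 3334, 3338, 3341 and 3336) had miR-150-5p, a miRNA of mature lymphocytes, at 7124, 8215, 14497 and 23333 CPM, against 23434 to 54260 CPM in the CM libraries of month 0. In the other 3 last libraries it was at 23069.7 to 46116 CPM, the lowest of them in mouse 3368. The myeloid markers miR-223-3p and miR-223-5p together were at 2016 to 6308 CPM in the 7 last libraries and 5390 to 39990 CPM at month 0. The erythroid miR-451a was at 11650 to 46323 CPM, against 23666 to 95219 CPM at month 0. The leukocyte miR-142a strands together were at 39132 to 83341 CPM in the last libraries. They were lowest in mouse 3368, which had the highest sum, and at 61281 CPM in mouse 3334, which had the lowest. Their mean was 55993 CPM in the last libraries, against 85305 in CM mice at month 0. Ctrl mice changed too between months 0 and 6. Their mean went from 43611 to 30841 CPM for miR-150-5p, against a mean of 22215 in the last CM libraries. For the myeloid markers it went from 11397 to 4472 CPM, against 4059. For miR-451a it rose from 61201 to 94390 CPM, against 22365. For the miR-142a strands it went from 74008 to 55667 CPM, against 55993. In the 7 last CM libraries the miR-290 to miR-295 markers were at 0 in 6. The endothelial miR-126a strands are also known from stem cells, and the study reports miR-126 as raised by CM. They summed to 324 to 7544 CPM in these libraries against 157 to 260 CPM in CM mice at month 0. The part of these cell types in the members' levels was not tested.

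For single members, the quasi-likelihood F test of edgeR was run on the counts of all miRNAs that passed its filter and Benjamini-Hochberg adjustment over all of them. A member is called when its adjusted p was under 0.05. The filter kept 22 to 51 of the 71 members, and the others had too few counts. Several comparisons use the same libraries, so their results are not independent of each other. In comparisons between months the main test did not pair the libraries of a mouse, and fits with the mouse as a block are given beside it.

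Before induction, 1 of 39 members tested was called, against 1 of 478 miRNAs in all (0.209%), so the member was the single call. This was miR-466n-3p, a strand of the Sfmbt2 intron at rank 16 among the members with 14.5 ± 5.62 CPM (SD over the same libraries). It was at 15.8 to 21.9 CPM (median 20.5) in CM and 9.37 to 14.1 CPM (median 10.5) in Ctrl mice at month 0. All 7 CM libraries lay above all 7 Ctrl libraries, 0.755 ± 0.128 on the log2 scale (SE; edgeR adjusted p = 0.0151). The call was lost without mice 3334 and 3335, whose sample numbers cross between months 5 and 6, without any of 8 single mice, and in each of 5 other settings, among them edgeR on the recovered reads. The 39 members tested had a median log2 fold change of 0.26, against 0.02 for all miRNAs tested, and 30 of the 39 were positive. At later months miR-466n-3p was not called. Its largest later value was 0.69 at month 3 (edgeR adjusted p = 0.0555) and its smallest 0.14 at month 1 (edgeR adjusted p = 0.743).

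At month 1 the members called were lower in CM mice. Of 36 members tested, 11 were called and all 11 were lower than in Ctrl mice, against 27.5% of all miRNAs called and 12.9% called lower. The median log2 fold change was -0.53 over the 36 members and -0.10 over all 472 miRNAs tested, and 34 of the 36 members were negative, against 55.9% of all. By family, 7 of 14 miR-669 members tested, 2 of 12 miR-466, 1 of 7 miR-467 and 1 of 3 miR-297 were called.

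Among the members called at month 1, those with the largest fold changes were low-level strands. miR-467e-3p, the minor strand of the miR-467e hairpin, was at 0.818 to 4.33 CPM (median 2.28) in CM and 5.32 to 9.00 CPM (median 7.07) in Ctrl mice, from 4 to 20 and 24 to 44 counts. All 7 CM libraries lay below all 7 Ctrl libraries, and the log2 fold change was -1.53 ± 0.32 (edgeR adjusted p = 0.00523). miR-669a-3-3p was at 0.511 to 5.63 CPM (median 1.78) in CM and 4.78 to 8.80 CPM (median 6.80) in Ctrl mice. It was below every Ctrl library in 6 of 7 CM mice, and the difference was -1.55 ± 0.39 on the log2 scale (edgeR adjusted p = 0.0120).

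Further members called lower at month 1 were miR-669b-3p (-1.42), miR-669d-5p (-1.42), miR-669e-5p (-1.15), miR-669p-5p (-1.12) and miR-466m-3p (-0.86), with edgeR adjusted p between 0.0125 and 0.0465. Among members of higher level, miR-297b-3p was at 15.8 to 53.3 CPM (median 22.5) in CM and 40.0 to 65.1 CPM (median 54.3) in Ctrl mice. It was below every Ctrl library in 5 of 7 CM mice (log2 fold change -0.86 ± 0.26, edgeR adjusted p = 0.0245). The most abundant member miR-467e-5p was not called, at 178 to 469 CPM in CM and 349 to 499 CPM in Ctrl mice. The member with the lowest fold change of all tested, miR-467a-5p at -1.62 ± 0.92, was not called either (edgeR adjusted p = 0.205).

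**Figure D3:**
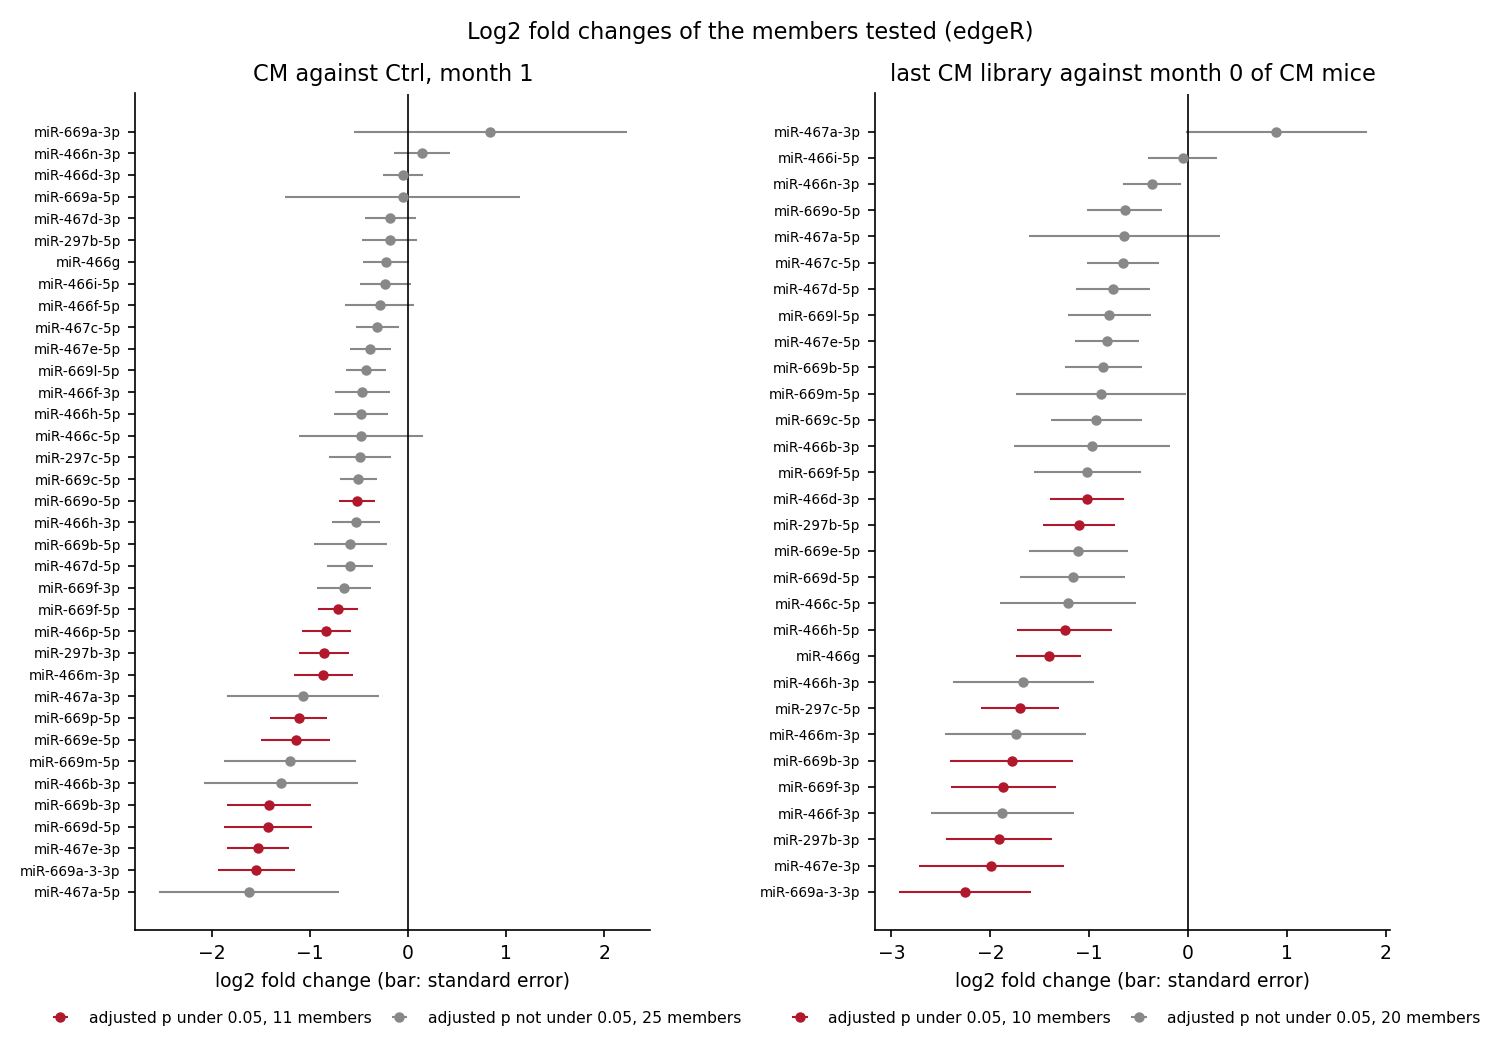
Log2 fold changes (x axis, points, with bars for the standard error from edgeR) of the members tested, 1 row for each member, for CM against Ctrl mice at month 1 (left, 36 members) and for the last CM library against month 0 of the same mice (right, 30 members). Red points are the 11 and 10 members called, and 34 of 36 and 29 of 30 members lie to the left of 0.

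The month 1 calls depended on a few libraries. The CM libraries of mice 3336 and 3368, those with high miR-451a, had the lowest summed levels at 599 and 814 CPM, and miR-451a was at 15216 to 47603 CPM in Ctrl mice. Without these mice, a setting chosen after seeing the data, 2 of the 11 members remained called, miR-467e-3p at -1.18 and miR-669a-3-3p at -1.15, and 86 miRNAs were called in all. With 1 mouse left out 6 to 12 were called, with 6 without mouse 3336 and 7 without mouse 3346 or 3368, against 95 to 145 of all miRNAs. The labels carry a G number that they do not explain and that the arms shared only in part. With the G number as a covariate no member was called at month 1, where calls over all miRNAs also went from 130 to 10. Within the 3 G numbers that held both arms (4 CM and 6 Ctrl libraries), miR-467e-3p was lower in CM in all 3, by 0.51 to 3.10 log2 units, and miR-669a-3-3p in all 3, by 0.45 to 2.53. The values 3.10 and 2.53 are those of the G number whose only CM library was that of mouse 3368. The summed level was lower in 2 of the 3. At month 0, where 4 G numbers held both arms, the summed level and miR-466n-3p were higher in CM in all 4.

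Compared with their own month 0, CM mice had 5 of 35 members tested called at month 1, all lower, against 12.7% of all miRNAs called and 5.79% called lower. These were miR-669a-3-3p (-1.70), miR-467e-3p (-1.63), miR-669b-3p (-1.60), miR-669d-5p (-1.46) and miR-297b-3p (-1.01). miR-467e-3p fell in 7 of 7 mice, from 4.60 to 11.4 CPM (median 6.44) at month 0, and the other 4 were lower in 6 of 7. With the mouse as a block, which pairs the libraries of each animal, 1 of the 5 was called, miR-467e-3p, and without mouse 3357, 3368 or 3370 none was, where 16 and 11 to 13 of all miRNAs were called against 59. Without mice 3336 and 3368 together 1 of the 5 was called, miR-669d-5p, with 14 of all miRNAs. In Ctrl mice none of 38 members tested was called over the same month, against 0.63% of all miRNAs. There 5 members had an unadjusted p under 0.05, all higher, and DESeq2 and limma called 0. The median change was -0.61 over 35 members in CM and 0.26 over 38 members in Ctrl mice, against 0.01 and -0.01 over all miRNAs tested.

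The difference between these changes was tested itself. Of 41 members tested 6 were called, all with a lower change in CM mice, against 8.46% of all miRNAs called and 2.5% called lower. Among these 6, the largest differences were those of miR-669a-3-3p (-2.39 ± 0.47, edgeR adjusted p = 0.00298), miR-669e-3p (-1.91, edgeR adjusted p = 0.0319) and miR-467e-3p (-1.81 ± 0.39, edgeR adjusted p = 0.00553). In Ctrl mice miR-669a-3-3p was at 2.07 to 5.80 CPM at month 0 and 4.78 to 8.80 CPM at month 1, higher in 6 of 7 mice. The others were miR-297b-3p (-1.29 ± 0.30), miR-466h-3p (-0.96) and miR-669f-5p (-0.76). These values also contain the difference between the arms at month 0. For miR-669a-3-3p 5 of 7 CM libraries of month 0 lay above every Ctrl library. For miR-467e-3p, miR-297b-3p and miR-466h-3p it was 3 of 7. For miR-669e-3p it was 1, and for miR-669f-5p 1 lay above and 1 below every Ctrl library. With the mouse as a block 4 members were called, miR-297b-3p, miR-466f-3p, miR-467e-3p and miR-669a-3-3p. Without mice 3336 and 3368, 3 of the 6 remained called, miR-669a-3-3p, miR-467e-3p and miR-297b-3p, whereas miR-669e-3p had an edgeR adjusted p = 0.205 and miR-466h-3p and miR-669f-5p one of 0.178.

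After month 1 no member was called in a month fitted alone. At month 2, 0 of 30 members tested were called by edgeR, 6 had an unadjusted p under 0.05 and DESeq2 called 4, against 13.5% of all miRNAs called. At month 3 the count was again 0 of 30, with 4 at an unadjusted p under 0.05 and 3 called by DESeq2, against 22.0%. At months 4, 5 and 6 edgeR called 0 of 30, 0 of 36 and 0 of 31 members, against 0.837%, 0.0% and 0.0% of all miRNAs. There 2, 3 and 1 members had an unadjusted p under 0.05 and DESeq2 called 0, 1 and 0. The DESeq2 call at month 5 came with 18 of all miRNAs. When the counts of months 1 to 4 were summed for each mouse, 3 of 51 members tested were called, all lower in CM mice, against 28.9% of all miRNAs called and 13.6% called lower. They were miR-467e-3p (-1.01 ± 0.26, edgeR adjusted p = 0.0114), miR-466l-3p (-0.86, edgeR adjusted p = 0.0181) and miR-669e-5p (-0.50, edgeR adjusted p = 0.0294).

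The last CM libraries were next compared with the start of the series. Against month 0 of the same mice, 10 of 30 members tested were called, all lower, against 39.0% of all miRNAs called and 15.9% called lower. The median log2 fold change was -1.06 over the 30 members and -0.06 over all 446 miRNAs tested, and 29 of the 30 were negative, against 51.8% of all. All 3 miR-297 members tested, 3 of 10 miR-466, 1 of 6 miR-467 and 3 of 11 miR-669 were called. With the mouse as a block 17 of the 30 members were called, all lower, and the 10 were among them. Over all miRNAs that fit called 147, against 174 without the block.

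The plot of first and last libraries shows 6 of the members by mouse. miR-297b-3p went from 43.8 to 1.24 CPM in mouse 3334, from 49.4 to 9.81 in mouse 3336, from 45.05 to 4.34 in mouse 3338, from 53.7 to 9.98 in mouse 3341, from 71.1 to 8.58 in mouse 3357, from 86.8 to 49.8 in mouse 3368 and from 73.9 to 23.7 in mouse 3370. It fell in 7 of 7 mice, and only the last library of mouse 3368 reached the range of month 0 (log2 fold change -1.91 ± 0.54, edgeR adjusted p = 0.0110). In Ctrl mice of month 6 it was at 35.8 to 61.5 CPM.

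**Figure D4:**
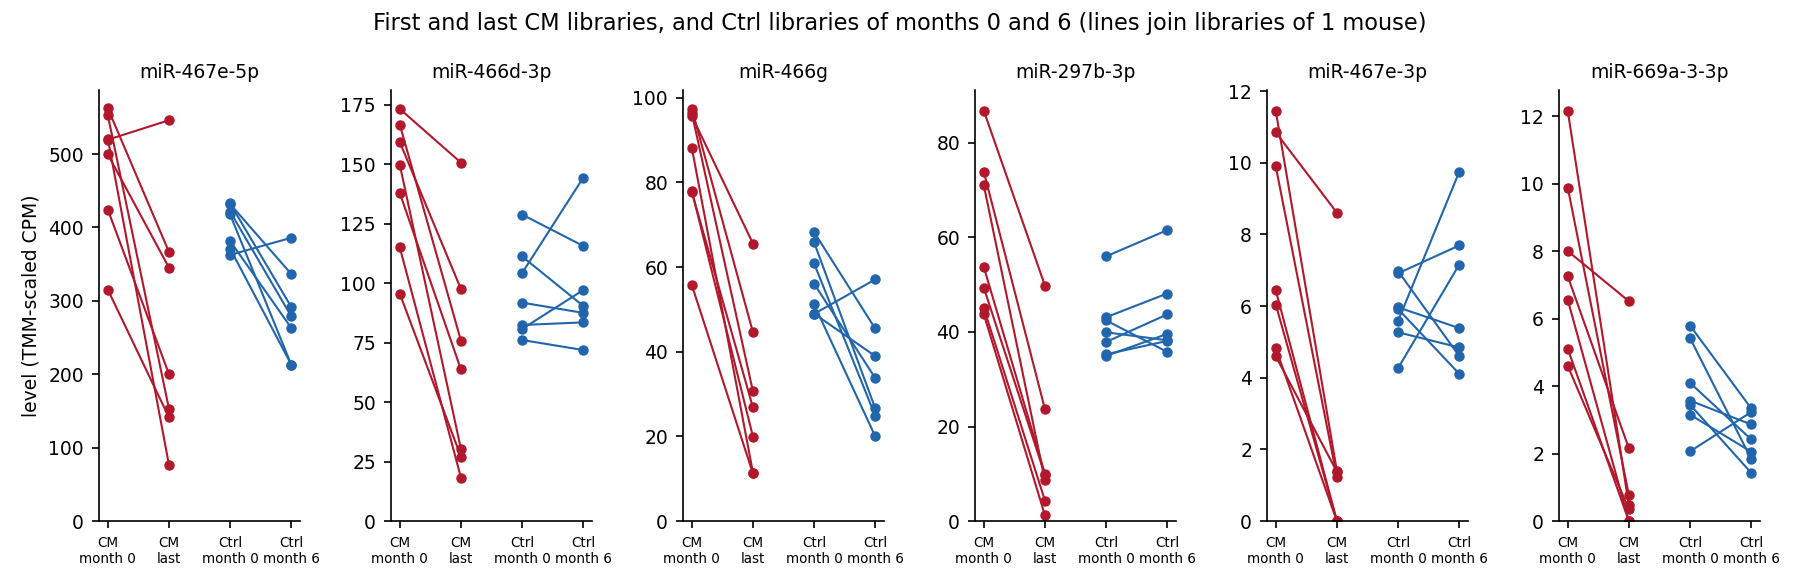
Level (y axis, TMM-scaled CPM, one scale for each panel) of 6 members in CM mice at month 0 and in their last library (red) and in Ctrl mice at months 0 and 6 (blue), with 1 line for each of 7 mice in each arm. miR-466d-3p, miR-466g, miR-297b-3p, miR-467e-3p and miR-669a-3-3p go down in 7 of 7 CM mice, and miR-467e-5p goes up in mouse 3357.

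miR-466g went from 55.8 to 97.4 CPM (median 88.2) at month 0 to 11.2 to 65.6 CPM (median 26.8) in the last library, lower in 7 of 7 mice (-1.41 ± 0.33, edgeR adjusted p = 0.00496). miR-297c-5p was at 3.30 to 6.68 CPM (median 4.44) at month 0 and 0.309 to 3.13 CPM (median 1.15) in the last library. It was the called member whose ranges did not overlap (-1.70 ± 0.40, edgeR adjusted p = 0.00512). miR-466d-3p, the most abundant 3p strand, was at 95.6 to 173 CPM (median 150) at month 0 and 18.3 to 151 CPM (median 63.8) in the last library (-1.03 ± 0.37, edgeR adjusted p = 0.0409).

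The largest fold changes were those of the low strands miR-669a-3-3p (-2.26 ± 0.67, edgeR adjusted p = 0.0144) and miR-467e-3p (-1.99 ± 0.73, edgeR adjusted p = 0.0432), which both had a last library with 0 counts. miR-669f-3p (-1.87), miR-669b-3p (-1.78), miR-466h-5p (-1.25) and miR-297b-5p (-1.10) were also called, the last of these lower in 6 of 7 mice and the other 3 in 7 of 7. miR-467e-5p was not called. It went from 315 to 562 CPM (median 520) at month 0 to 76.7 to 546 CPM (median 200) in the last library, and was lower in 6 of 7 mice but higher in mouse 3357. Mouse 3368 had the highest last-library sum, and without it 20 members and 234 of all miRNAs were called. Without any other single mouse 5 or 6 members were called, with 130 to 161 of all miRNAs, against 174 with all mice.

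The Ctrl mice show how the members moved over 6 months without the fusion. Between months 0 and 6, 4 of 37 members tested were called, 1 higher and 3 lower, against 20.5% of all miRNAs called, 10.8% called higher and 9.7% called lower. miR-467e-5p fell from 363 to 432.8 CPM at month 0 to 213 to 386 CPM at month 6, in 6 of 7 mice (-0.51 ± 0.13, edgeR adjusted p = 0.0143). miR-466g (-0.70) fell in 6 of 7 and miR-669b-3p (-1.16) in 7 of 7. With the mouse as a block 3 were called, miR-466q, miR-467e-5p and miR-669b-3p. The median over the 37 members was -0.16, against 0.03 over all miRNAs tested.

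The member that rose was miR-466q, the chromosome 3 sequence that opens the list above. In Ctrl mice it was at 0.592 to 2.90 CPM (median 1.36) at month 0 and 2.83 to 13.8 CPM (median 6.02) at month 6. It rose in 7 of 7 mice (2.26 ± 0.46, edgeR adjusted p = 0.00331). Its Ctrl median was 0.722 CPM at month 4, 12.4 at month 8 and 9.02 at month 10, and that of miR-466i-5p, of the chromosome 13 hairpin, was 6.65, 24.9 and 30.7 CPM. This course rests on the count table, since the CPM table gave miR-466q only 0 to 5 reads in a library.

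**Figure D5:**
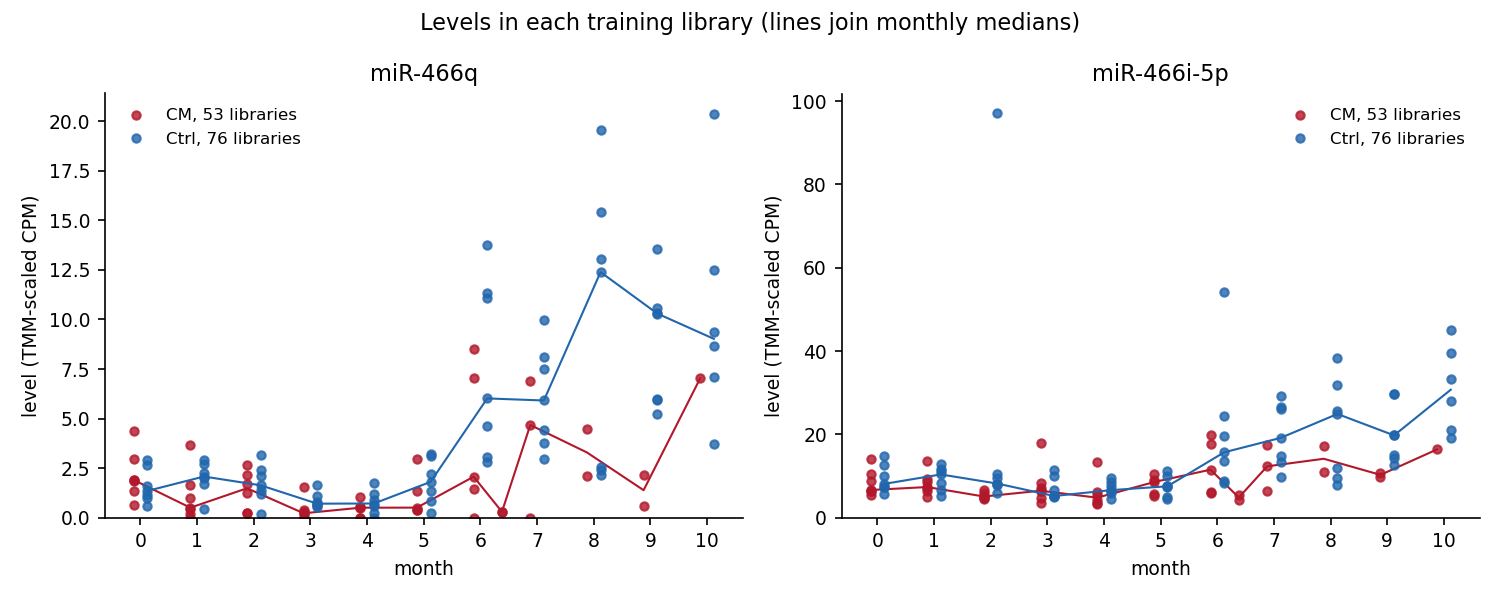
Levels (y axis, TMM-scaled CPM) of miR-466q and miR-466i-5p by month (x axis) in 53 CM libraries (red) and 76 Ctrl libraries (blue), with 1 point for each library and lines through the monthly medians. The Ctrl medians of miR-466q lie below 2.1 CPM up to month 5 and between 5.9 and 12.4 CPM from month 6.

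When the last CM libraries were set against Ctrl mice of month 6, 2 of 22 members tested were called, both lower, against 32.2% of all miRNAs called and 10.8% called lower. These 2 were miR-466q and miR-466i-5p. miR-466q was at 0 to 7.04 CPM (median 0) in the last CM libraries (-2.62 ± 0.90, edgeR adjusted p = 0.0387), and 6 of the 7 lay below every Ctrl library. miR-466i-5p was at 3.32 to 16.4 CPM (median 6.19) in the last CM libraries and 8.30 to 54.1 CPM (median 15.7) in Ctrl mice (-1.43 ± 0.48, edgeR adjusted p = 0.0344). With Ctrl libraries of month 4 in their place no member was called and miR-466i-5p was at 0.09, and on the recovered reads edgeR called 0. The median over the 22 members was -0.80, against -0.01 over all miRNAs tested. Without mouse 3368 13 members were called, and calls over all miRNAs also rose, to 209. Without mouse 3334, 3336, 3338, 3341, 3342, 3346, 3350 or 3357 no member was called, and calls over all miRNAs also went down, to 78 at the lowest.

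In the validation cohort only the 12 libraries of point 5 were deep enough for the members, with 1645456 to 5445215 reads and 3846 to 16831 reads of members. Members were at 1403 to 3770 recovered reads per 1000000 (RPM, median 2759) in 6 CM and 2570 to 3842 (median 2803) in 6 Ctrl mice, so the ranges overlapped. With limma-trend on the deposited CPM, 0 of 65 members tested were called, against 0.0% of all 930 miRNAs. There 2 members had an unadjusted p under 0.05, 1 in each direction, and edgeR on the recovered reads called 0. The median log2 difference was -0.17 over the 65 members and -0.04 over all miRNAs tested. miR-467e-5p was at 227 to 629 RPM (median 397) in CM and 304 to 449 (median 419) in Ctrl mice. In the other 90 libraries, of 1744 to 76906 reads, members had 0 to 18 reads, and 8 libraries had none. Pooled over libraries, members had 222 of 1108965 reads in CM and 189 of 1038861 reads in Ctrl mice, or 200.2 and 182 RPM. This was below the lowest library of point 5 in both arms, so these libraries differed from those of point 5 in the members' share as well as in depth, and no comparison of arms was made in them.

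Other imprinted miRNA loci are given for comparison. The Dlk1-Dio3 cluster, 98 names and 19331 counts, had 0 to 4 members that passed the filter in the training comparisons. Of these, 3 of 4 were called higher in the last CM libraries against Ctrl month 6, where 21.4% of all miRNAs were, and 2 of 4 in the sum of months 1 to 4, where 15.2% were. The 1 name tested in the last CM libraries against month 0 was also called higher. Both miR-335 strands of Mest were called higher in the last CM libraries, against month 0 (23.1% of all miRNAs) as well as against Ctrl month 6. In Ctrl mice 1 of the 2 strands was also called higher at month 6 against month 0 (10.8% of all miRNAs). Of the 3 tested names of the Gnas locus (miR-296 and miR-298), 3 were called higher in the sum of months 1 to 4 and 2 in the last CM libraries against Ctrl month 6. In single months 1 was called higher at month 1 (14.6% of all miRNAs) and 2 at month 3 (14.3%), and 3 were called lower between Ctrl months 0 and 6 (9.7%). The H19 and Igf2 miRNAs had 6 and 98 counts and were not tested. The miR-290 to miR-295 cluster had 644 counts over 18 names, none tested in the training cohort and 2 tested without a call at validation point 5.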

How the data were processed

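RNA of PBMC was converted to small RNA libraries. Per the methods of the study, adapters were removed with cutadapt, reads were aligned to mm9 with Bowtie, and mature miRNAs of miRBase were counted and TMM-scaled in edgeR. The labels name GRCm38 instead, and their processing notes also list SAMtools. The authors deposited whole-number counts (mirTOP) for the training cohort. The deposited CPM of both cohorts, for 1895 and 1817 miRNAs, do not sum to one fixed total and were treated as a scaled signal. How reads that match several hairpins were shared out is not stated, and this bears on near-identical members.

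Counts were tested with edgeR 4.0.16 (R 4.3.3; TMM, filterByExpr, quasi-likelihood F test, two-sided, Benjamini-Hochberg over all miRNAs tested, threshold 0.05), with 1 library for each mouse and month. SE is the absolute log2 fold change over the square root of F. For the validation cohort, log2(CPM + 1) was compared by limma-trend (version 3.58.1), keeping names that reached 1 CPM in a number of libraries no lower than the smaller group. This scale understates changes of low miRNAs. DESeq2 1.42.0 was an alternative. The tests were checked on simulated data. Figures and summaries used Python 3.11.15, numpy 2.4.6, pandas 2.3.3 and matplotlib 3.10.9. The main tests between months, and that of the difference in changes, were unpaired and took libraries of the same mouse as independent. Their SE and adjusted p therefore ignore the pairing, and the mouse as a block was an alternative. Counts of mice that rose or fell, and the block, pair libraries by the mouse ID in the labels, which marks the same animal.

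The members, the marker lists and the lists of other loci were chosen with earlier results of these data known. Named members were the 10 of highest mean level, up to 8 called in each direction in a comparison by absolute log2 fold change, and miR-466n-3p in every comparison. The alternatives were DESeq2, raw library sizes, a minimum of 10 summed counts in place of filterByExpr, sex or the G number as a covariate, 1 fit over all training libraries, the deposited CPM, the recovered reads, the mouse as a block, other months, and the omission of mice. No p was computed for sums over members.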

Additional observations from a re-analysis of the deposited data

Results flagged for a closer look

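Among 209 groups of 4 to 10 libraries, for the summed level and the 10 most abundant members, 15 (7.18%) had a highest or lowest library far from the others of its group, where chance gives about 1 in 20 for independent groups. These groups are not independent, since the summed level contains the 10 members, and this share was not tested. Values are in CPM after TMM scaling. The summed level was lowest at 355.6 in CM mouse 3338 at month 4 and at 406 in CM mouse 3341 at month 6, both last libraries of their mice, and miR-467c-5p was lowest in the latter at 50.6.

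In Ctrl mice, low single libraries were mouse 3349 at month 2 (miR-467e-5p 47.4), mouse 3339 at month 1 (miR-467e-5p 349), mouse 3335 at month 1 (miR-669o-5p 29.3) and mouse 3346 at month 8 (miR-467c-5p 55.3). High single Ctrl libraries were mouse 3340 at month 0 (miR-297b-3p 56.0), mouse 3342 at month 5 (miR-297b-3p 41.2) and mouse 3342 at month 6 (miR-669c-5p 240). The library of mouse 3349 at month 2 had miR-451a at 6285, the lowest of all training libraries.

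High single CM libraries were mouse 3368 at month 0 (miR-669o-5p 59.7) and in its last library (miR-466f-3p 109.5). The multi-copy miR-467a-5p was high at 129.5 in mouse 3338 at month 1, at 276 in mouse 3357 at month 3 and at 214 in the last library of mouse 3357.

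The change from month 0 to month 1 differed between CM and Ctrl mice for 6 members (log2, CM less Ctrl, edgeR interaction test with adjustment over all miRNAs). These were miR-669a-3-3p (-2.39), miR-669e-3p (-1.91), miR-467e-3p (-1.81), miR-297b-3p (-1.29), miR-466h-3p (-0.96) and miR-669f-5p (-0.76). The values also contain the difference between the arms at month 0. Without mice 3336 and 3368, miR-669e-3p, miR-466h-3p and miR-669f-5p were no longer called (edgeR adjusted p = 0.205, 0.178 and 0.178).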

How the results depend on the processing

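Counts of members called moved by more than 1.5 times as follows, and the cause was not tested. Calls over all miRNAs in the same fit are in brackets. Members tested are given where the filter or the table was another one. With DESeq2 they were 2, 4, 3 and 1 at months 0, 2, 3 and 5, 5 in the last CM libraries against Ctrl month 6 and 8 for CM month 1 against month 0. With a minimum of 10 summed counts they were 0 at month 0, 7 at month 1 and 2 for Ctrl month 6 against month 0. With raw library sizes they were 1 (65) at month 2 and 3 (39) for CM month 1 against month 0. With limma-trend on the deposited CPM they were 0 of 56 (0) at month 0, 18 of 55 (143) at month 1 and 6 of 53 (191) for months 1 to 4. For the last CM libraries they were 37 of 53 (233) against month 0 and 15 of 50 (171) against Ctrl month 6. For CM month 1 against month 0 they were 11 of 55 (67). On recovered reads, an alternative chosen after seeing the data, they were 0, 18 and 1 at months 0, 1 and 3, 7 for months 1 to 4, 25 and 0 for the last CM libraries and 12 for CM month 1. Of the 18 at month 1, 7 were among the 11. Names with identical values are counted more than once in these CPM-based counts. With the G number as a covariate the members called were 0 (0) at month 0 and 0 (10) at month 1. With sex as a covariate they were 3 (63) at month 2 and 1 (92) for the last libraries against Ctrl month 6. One fit over all training libraries gave 0 (0), 1 (51) and 1 (70) of 52 members tested at months 0, 2 and 4. Without mice 3334 and 3335 they were 0 at month 0, 1 at month 3, 1 for months 1 to 4, and 6 and 1 for the last CM libraries. Without mice 3336 and 3368, also chosen after seeing the data, they were 2 (86) at month 1 and 1 (14) for CM month 1 against month 0. With Ctrl month 4 the last CM libraries gave 0.

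With the mouse as a replicate block the last CM libraries gave 17 calls and CM month 1 gave 1, with 147 and 16 of all miRNAs. No other count moved by over 1.5 times with the block. With 1 mouse left out the counts were 0 to 1, 6 to 12, 0 to 4, 0 to 2, 0 to 0, 0 to 1 and 0 to 0 at months 0 to 6, 2 to 5 for months 1 to 4, 5 to 20 and 0 to 13 for the last CM libraries, 2 to 4 for Ctrl month 6, 0 to 7 for CM month 1, 0 to 0 for Ctrl month 1 and 0 to 0 at validation point 5. Calls over all miRNAs moved in these settings too, for example from 95 to 145 at month 1.

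miR-466n-3p changed sign at month 4 with raw library sizes (-0.0035), at month 6 with T6p5 libraries (-0.13), in the last libraries against Ctrl month 4 (-0.33), for Ctrl month 6 against month 0 with limma-trend (-0.066) and with the mouse block (-0.0069), and for CM month 1 against month 0 without mice 3336 and 3368 (0.098). With 1 mouse left out its value ran from -0.051 to 0.32 at month 1, from -0.027 to 0.33 at month 4, from -0.097 to 0.11 for Ctrl month 6 and from -0.032 to 0.31 at validation point 5. miR-466i-5p changed from -1.43 to 0.090 with Ctrl month 4. Of 580 pairs of a called member and an alternative, 394 stayed past the threshold in the same direction, 185 kept the direction and lost the threshold, and 1 changed sign. The differences in summed level moved by less than the spread between mice under every alternative run. Depth limits the members below about 1 CPM.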
